A study of Rattus norvegicus with 6 samples.

Results

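The genes described here belong to the ATF4 branch of the cellular stress response and to the amino acid supply it controls. They are 10 genes of the 15388 in the count tables, and were chosen by name (Chac1, Atf4, Ddit3, Trib3, Asns, Sesn2, Psat1, Phgdh, Slc7a11 and Ppp1r15a). All 10 were present. The choice was made with the LP against NP comparison in view, in which Chac1 was high in LP while endoplasmic reticulum (ER) chaperones were low. The LP and NP values of these genes and of the chaperones are therefore given as a description, without a test. Thyroids of adult female Sprague-Dawley rats were compared between 3 non-pregnant samples (NP) and 3 samples from late pregnancy (LP, day 18 counted from the vaginal plug as day 1). The labels name no allele or agent for either group, and poly(A) RNA was sequenced. Levels are given as read counts or as CPM, which are counts set to a common library size with TMM, a scaling that trims the genes that differ most. The log2FC is the log2 fold change of LP against NP, given with its standard error (SE).

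As background, several kinases sense trouble in a cell, such as misfolded protein in the ER (Eif2ak3, PERK), missing amino acids (Eif2ak4, GCN2), double-stranded RNA (Eif2ak2, PKR) or lack of heme (Eif2ak1, HRI). Each phosphorylates the translation factor eIF2α, which lowers protein synthesis in general but raises translation of the Atf4 mRNA. The ATF4 protein then switches on genes for amino acid synthesis and uptake, tRNA charging and glutathione turnover. The ER stress response has further branches, run by ATF6 and IRE1, that raise chaperones. A thyroid follicular cell secretes very large amounts of thyroglobulin through its ER. Because ATF4 is controlled in large part at translation, the Atf4 mRNA is not a measure of the protein.

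The depth lay between 2752144 and 3449857 counted reads per sample. A count of 3 reads, taken as the floor, was worth 0.890 to 1.07 CPM, a limit for counting error only. NP replicates 2 and 3, and LP replicates 2 and 3, did not differ beyond the sampling noise of counting (chi-square per gene 1.01 and 0.995, where counting alone gives about 1, against 3.70 to 4.11 between replicate 1 and these). Their average enters each mean ± SD as a single sample, so n = 2 per group. The study describes 3 rats per group, and the labels only number the samples. With replicates this alike the p-values may measure technical spread in part. The same holds for the standard errors, as the fit took all 6 samples as separate. All 10 thyroid follicular markers passed the filter on low counts, and Tg alone took 22.9% to 24.5% of the reads. By edgeR 3 of these 10 were higher in LP (30%, against 15.3% of all genes) and 2 lower (20%, against 11.7%). Slc5a5 and Tshr had a log2FC of -0.94 and -0.68, but Duoxa2, Duox2 and Nkx2-1 had 0.48, 0.29 and 0.28. The other 5 were not called. Most skeletal muscle markers were higher in LP. The summed level of the 14 markers in the tables was 34.3 to 82.1 CPM in NP and 5552 to 5885 CPM in LP, 11 of the 12 tested markers were higher in LP, and Myh1 and Mylpf had no read in any NP sample. Acta1, 1 of these 14 markers, had 0 reads in replicate 1 of both groups, against 144 to 186 in the other samples. It was the tested marker that was not called, with a log2FC of 0.11 (SE 0.66). Casq1, a marker below the count filter, was read 0, 4 and 2 times in the NP samples against 0, 2 and 1 times in the LP samples. The part of muscle RNA in the results below was not tested, and more cells of a type cannot be told apart from more RNA per cell in bulk tissue. Parathyroid marker sums were 4459 to 4830 CPM in NP and 3717 to 4029 CPM in LP, C cell sums 13761 to 14720 and 12182 to 12924 CPM, airway sums 2.14 to 4.93 and 12.2 to 14.2 CPM, and endothelium sums 413 to 441 and 361 to 382 CPM. Such sums follow their most abundant genes, and single parathyroid, C cell and endothelium markers went both ways. Pth had a log2FC of -0.30, but Gcm2 and Casr had 0.18 and 0.10. Calca, Calcb and Chga had -0.32, -0.19 and -0.01, but Scg2 and Gfra4 had 0.42 and 0.22. Kdr and Tie1 had -0.31 and -0.23, but Cdh5 and Vwf had 0.01 and 0.15.

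Promoter sequences are shown for the genes whose windows hold the motifs of the branches compared here. In these sequences, the 250 bases before the annotated start site (RefSeq, build GRCr8) are printed 5′ to 3′ on the gene's own strand. The tables matched all 10 genes. The C/EBP-ATF response element, to which ATF4 binds, was searched as TGATGNAA on both strands. It was found in the windows of 2 of the 10 genes, Chac1 and Trib3, against 3.98% of all 33469 promoter windows (300 bases, from 250 before to 50 after the start). Only the first window listed for each gene was searched, while the share over all promoters counts every window. A motif outside that window, or at another start site, was not seen. For the first sequence the location is chr3:126795881-126796130 (+), with the match, in capitals, starting 167 bases before the start site. For the second it is chr3:161275534-161275783 (-), with the match 21 bases before it. The third is that of Tars1 (Tars in the count tables, threonyl-tRNA synthetase), at chr2:62114803-62115052 (-), with the match 27 bases before the start. It stands for the cytosolic aminoacyl-tRNA synthetases, of which 7 of 17 with a window held the motif.
Chac1: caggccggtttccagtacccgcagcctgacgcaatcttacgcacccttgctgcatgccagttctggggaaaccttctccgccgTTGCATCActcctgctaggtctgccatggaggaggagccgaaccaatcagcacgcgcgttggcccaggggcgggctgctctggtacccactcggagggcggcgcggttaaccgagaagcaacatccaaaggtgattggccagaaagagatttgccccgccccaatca
Trib3: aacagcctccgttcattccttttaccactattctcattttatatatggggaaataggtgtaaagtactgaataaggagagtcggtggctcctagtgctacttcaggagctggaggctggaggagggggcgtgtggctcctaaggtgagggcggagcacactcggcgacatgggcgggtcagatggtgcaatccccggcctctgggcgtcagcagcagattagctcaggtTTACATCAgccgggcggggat
Tars1: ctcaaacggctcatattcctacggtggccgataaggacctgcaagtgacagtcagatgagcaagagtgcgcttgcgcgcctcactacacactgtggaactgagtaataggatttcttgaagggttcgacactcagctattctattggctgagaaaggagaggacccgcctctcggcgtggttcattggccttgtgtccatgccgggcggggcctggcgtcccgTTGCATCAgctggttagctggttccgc

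The ER stress element, the site of the chaperone branch, was searched on both strands as CCAAT and CCACG with 9 bases between them. It was in the windows of 6 of 11 chaperones (Hspa5, Hsp90b1, Calr, Canx, Dnajc3 and Creld2), in 0 of the 10 ATF4 branch genes and in 0.0657% of all promoter windows. No gene of the lists held both motifs in its window. The promoters of Hspa5, at chr3:38452766-38453015 (+), and of Creld2, at chr7:121789134-121789383 (+), are shown with the element in capitals, starting 43 and 145 bases before the start site. A match is a string of letters in a window and not evidence that a factor was bound.
Hspa5: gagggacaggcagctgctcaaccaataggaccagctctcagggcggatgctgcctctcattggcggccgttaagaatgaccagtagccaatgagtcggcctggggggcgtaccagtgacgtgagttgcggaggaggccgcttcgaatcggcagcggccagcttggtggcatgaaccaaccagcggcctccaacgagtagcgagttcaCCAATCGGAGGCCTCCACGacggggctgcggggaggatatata
Creld2: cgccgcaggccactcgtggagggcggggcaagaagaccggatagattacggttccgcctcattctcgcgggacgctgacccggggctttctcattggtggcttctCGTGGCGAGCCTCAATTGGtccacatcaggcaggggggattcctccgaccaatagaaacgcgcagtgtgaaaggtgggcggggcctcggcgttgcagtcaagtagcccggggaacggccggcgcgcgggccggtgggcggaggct

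Chac1 stood apart from the other genes of the branch. It encodes a γ-glutamylcyclotransferase that breaks down glutathione and is a known target of ATF4. It was read 2, 5 and 2 times in the NP samples against 26, 40 and 38 times in the LP samples, so that every LP sample was far above every NP sample. In CPM this was 0.715, 1.64 and 0.657 in NP and 8.30, 11.9 and 11.3 in LP, or 0.931 ± 0.306 (SD, n = 2) against 9.94 ± 2.31. The log2FC was 3.33 (SE 0.37). From the summed reads, 9 in NP and 104 in LP, the ratio was 10.4 with a 95% Clopper-Pearson interval of 5.28 to 23.4 that covers counting error only. The NP level was near the floor, and Chac1 passed the filter on low counts through its LP reads alone, so the size of the change is known only within this wide interval. Chac2, its close relative with the same kind of activity, was read 13, 17 and 11 times in the NP samples against 13, 11 and 21 times in the LP samples. Its log2FC of -0.02 (SE 0.32) was not past the threshold in edgeR's quasi-likelihood test (adjusted p = 0.98).

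**Figure D1:**
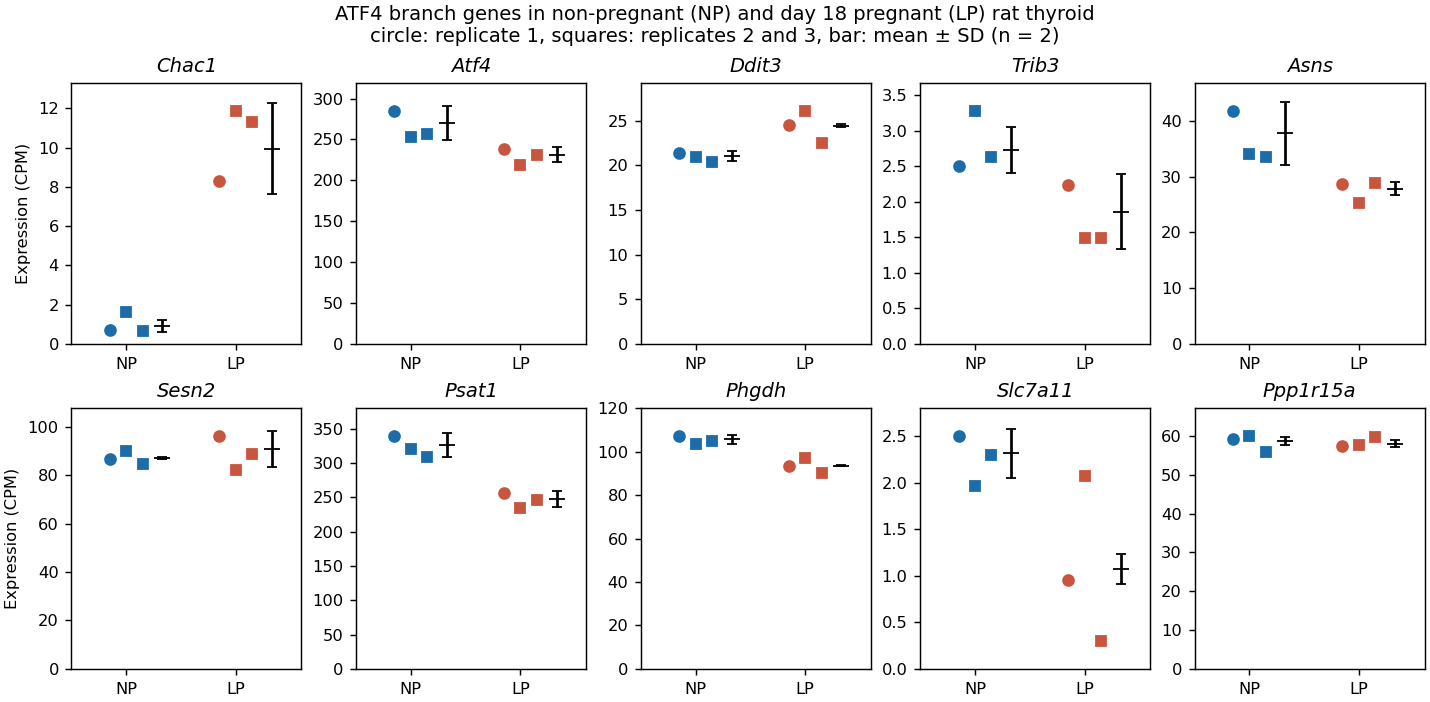
Expression in CPM (y axis, starting at 0) of the 10 ATF4 branch genes in the NP and LP samples (x axis), with a circle for replicate 1, squares for replicates 2 and 3, and a bar for the mean ± SD (n = 2). Chac1 lies between 0.657 and 1.64 CPM in NP and between 8.30 and 11.9 CPM in LP, while the other 9 genes differ less between the groups.

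The transcription factors of the branch differed far less between the groups than Chac1. Atf4 itself was read 797, 773 and 783 times in the NP samples against 746, 737 and 778 times in the LP samples, from deeper LP libraries. Its level was 270.0 ± 20.9 CPM in NP and 231 ± 9.5 CPM in LP (SD, n = 2). All LP samples lay below all NP samples, with a log2FC of -0.21 (SE 0.06). Ddit3 (CHOP), a factor downstream of ATF4 that is tied to cell death in long stress, was read 60, 64 and 62 times in the NP samples against 77, 88 and 76 times in the LP samples. That was 21.0 ± 0.55 against 24.5 ± 0.18 CPM. The groups did not overlap, and the log2FC was 0.22 (SE 0.13).

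The feedback genes had overlapping groups or few reads. Ppp1r15a (GADD34) brings a phosphatase to eIF2α and so ends the response. It was read 166, 183 and 170 times in the NP samples against 180, 194 and 201 times in the LP samples, or 58.6 ± 1.0 against 58.0 ± 0.80 CPM, with overlapping groups and a log2FC of -0.00 (SE 0.07). Its constitutive relative Ppp1r15b had a log2 fold change of -0.03 (adjusted p = 0.806 by edgeR). Trib3, a pseudokinase induced by ATF4 that restrains ATF4 and Akt, was read 7, 10 and 8 times in the NP samples against 7, 5 and 5 times in the LP samples. It was below the count filter, and in a fit of all genes its log2FC was -0.70 (SE 0.42). The ratio of summed reads, 0.613, had an interval of 0.311 to 1.18, which spans both directions, although in CPM every LP sample was below every NP sample. Its relatives Trib1 and Trib2 had log2 fold changes of 0.05 and 0.06 (adjusted p = 0.607 and 0.879 by edgeR), and both turned slightly negative with scaling by library totals.

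The enzymes of amino acid synthesis were lower in LP or close to NP. Asns, which makes asparagine, was read 117, 104 and 102 times in the NP samples against 90, 85 and 97 times in the LP samples. Its level was 37.8 ± 5.7 CPM in NP and 27.9 ± 1.2 CPM in LP, with every LP sample below every NP sample and a log2FC of -0.40 (SE 0.12). Psat1 and Phgdh act in serine synthesis, Phgdh at its first step and Psat1 after it. Psat1 was read 950, 979 and 939 times in the NP samples against 802, 789 and 828 times in the LP samples, or 327 ± 17.6 against 248 ± 11.4 CPM, a log2FC of -0.40 (SE 0.06). Phgdh was read 300, 316 and 320 times in the NP samples against 293, 328 and 304 times in the LP samples, or 106 ± 2.0 against 93.6 ± 0.15 CPM, a log2FC of -0.17 (SE 0.06). For both genes the CPM of every LP sample was below that of every NP sample.

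Sesn2, a leucine sensor that restrains mTORC1, was read 243, 274 and 258 times in the NP samples against 301, 277 and 299 times in the LP samples. This was 87.0 ± 0.30 against 90.8 ± 7.5 CPM, with overlapping groups and a log2FC of 0.03 (SE 0.07). Its relative Sesn3 rose, from 62.1 ± 3.1 to 78.5 ± 4.0 CPM (log2 fold change 0.38, SE 0.08, adjusted p = 0.00115 by edgeR), while Sesn1 had a log2 fold change of 0.19 (adjusted p = 0.341). Slc7a11, the cystine importer that feeds glutathione synthesis, was read 7, 6 and 7 times in the NP samples against 3, 7 and 1 times in the LP samples, below the filter. The ratio of summed reads was 0.496, with an interval of 0.215 to 1.08, so a difference was not detectable at this depth. In a fit of all genes its log2FC was -0.99 (SE 0.56), with 1 LP sample at the level of NP.

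Of the 8 genes that passed the filter, Chac1 and Ddit3 had all LP above all NP samples, as 21.1% of all 11738 genes tested did, and Atf4, Asns, Psat1 and Phgdh had all LP below, as 19% did. The comparison was the one used to choose the genes, so nothing is read from these counts.

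**Figure D2:**
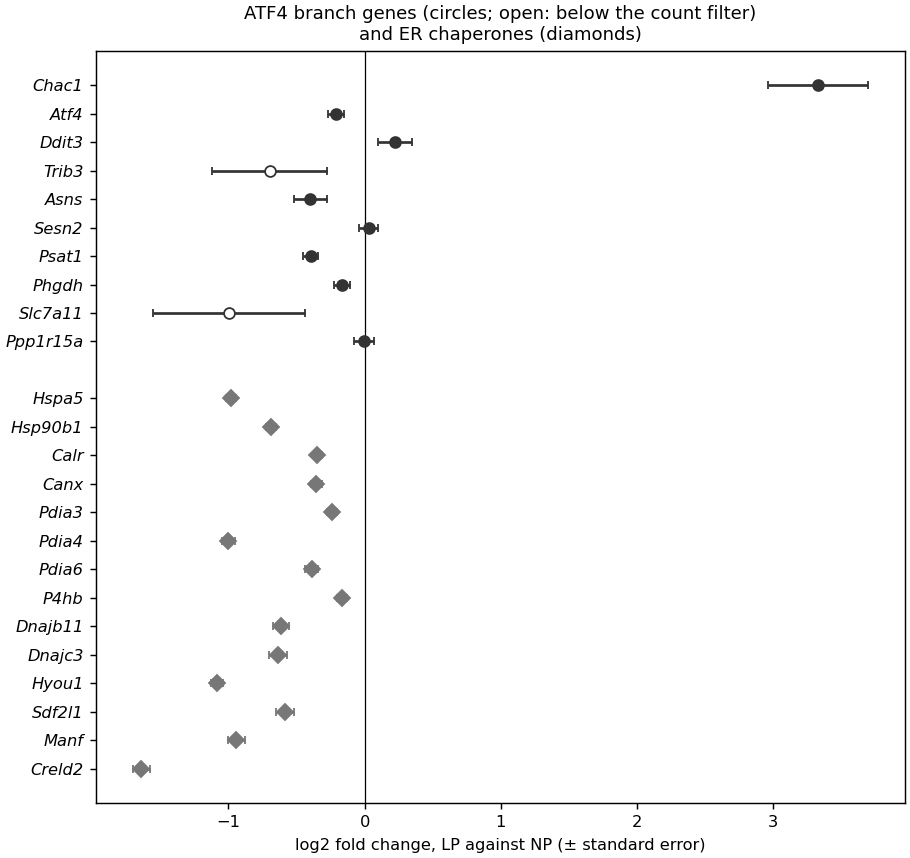
Log2 fold change of LP against NP (x axis) with its standard error for the 10 ATF4 branch genes (circles, open for Trib3 and Slc7a11, which were below the count filter) and 14 ER chaperones (diamonds). Chac1 lies alone at 3.33, the other 9 genes lie between -0.99 and 0.22, and all 14 chaperones lie below 0.

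The chaperones, whose low level was part of the choice, are given as the setting of these values. Hspa5 (BiP), the main ER chaperone, was read 14199, 13860 and 14038 times in the NP samples against 7807, 7974 and 7887 times in the LP samples, a log2FC of -0.98 (SE 0.04). Hsp90b1 had -0.69, and the 3 with the largest values were Creld2 at -1.64, Hyou1 at -1.08 and Pdia4, which went from 3018, 3054 and 3083 reads to 1672, 1667 and 1740. For all 14 chaperones the groups did not overlap, with LP below NP, as for 19% of all genes tested. Their median log2 fold change was -0.62, with a median over all genes tested of -0.01.

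The wider pathway was then examined through 8 lists of other genes, without the 10 genes and the chaperones. The tables held 138 of their genes, and the filter passed 129 of these. In edgeR's quasi-likelihood test, adjusted over all genes, 23 of them (17.8%) were higher in LP and 31 (24%) lower. The share higher was close to that of all genes (15.3%), and the share lower above it (11.7%). The lists were written with earlier results on these data known. Of the 31 lower genes, 12 belong to the list of the ATF6 and IRE1 branches, which raise the chaperones named in the choice. The shares are therefore given as a description. The split depended on scaling. With library totals alone 19 were higher and 42 lower, and over all genes the 1794 higher and 1378 lower became 1461 and 2154. With DESeq2 in place of edgeR 17 (13.2%) were higher and 20 (15.5%) lower, against 10.4% and 5.99% of all genes. By edgeR 6 of the 129 were also higher by more than 2-fold, as 4.9% of all genes tested were, while 0.537% of all were lower by as much.

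**Figure D3:**
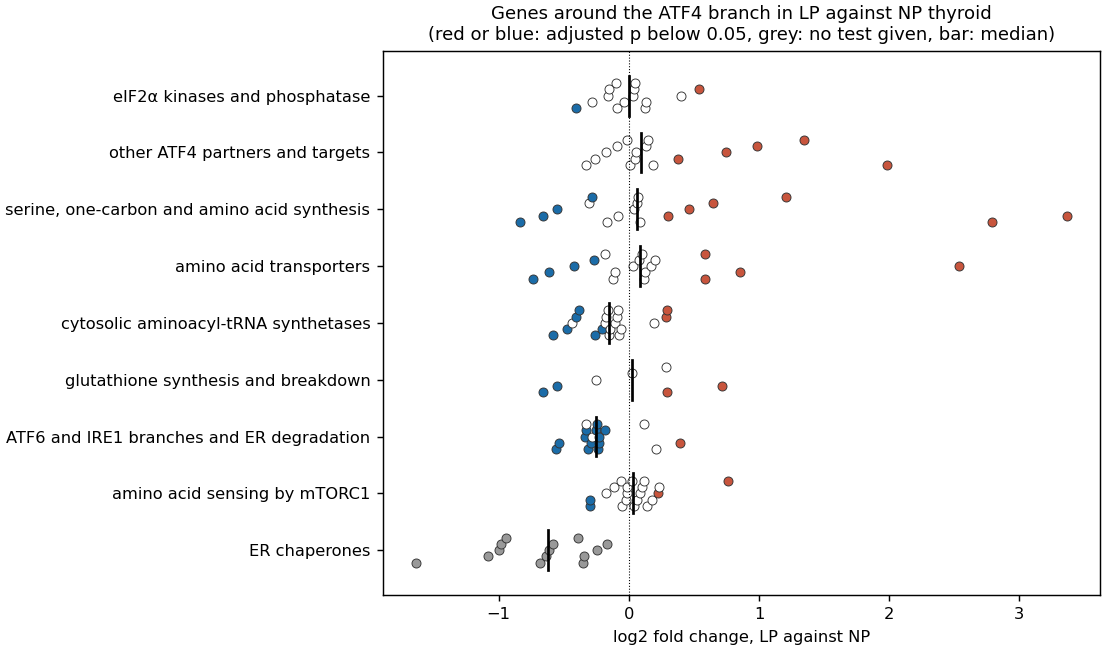
Log2 fold change of LP against NP (x axis) of every tested gene in 8 lists around the ATF4 branch and of the ER chaperones (rows), in red or blue where the adjusted p was below 0.05 and in grey for the chaperones, with a bar at each list's median. The list of the ATF6 and IRE1 branches sits mostly below 0 (12 of 17 genes lower), whereas the lists of other ATF4 targets, amino acid synthesis and transporters spread to both sides.

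Upstream of ATF4, 1 of the 4 eIF2α kinases was called. Of 14 tested genes of eIF2α signalling, 1 was higher and 1 lower (7.14% each, against 15.3% and 11.7% of all genes). The median log2 fold change of the list was -0.00. Eif2ak2 (PKR), which is also induced by interferon, rose from 101, 103 and 114 reads to 156, 181 and 177, a log2FC of 0.54 (SE 0.09, adjusted p = 0.000192 by edgeR). PERK (Eif2ak3), GCN2 (Eif2ak4) and HRI (Eif2ak1) had log2 fold changes of 0.05, -0.09 and -0.16 (adjusted p = 0.768, 0.638 and 0.328 by edgeR). Without NP replicate 3 the value of Eif2ak1 was -0.31 (adjusted p = 0.0191, and 0.127 to 0.812 in its other alternatives), and the values of Eif2ak3 and Eif2ak4 changed sign without NP replicate 1. Nck1, an adaptor that dampens eIF2α phosphorylation, fell by 0.40 on the log2 scale (adjusted p = 0.0121, 0.141 with DESeq2, and 0.00361 at the lowest of the alternatives).

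Among other partners and targets of ATF4, 5 of 16 tested genes were higher in LP by edgeR (31.2%, against 15.3% of all genes). The count lower was 0 (against 11.7% of all genes), and at an unadjusted p of 0.05 the counts were 5 and 1. DESeq2 called 3 higher and 0 lower, and scaling by library totals alone gave 2 lower. Fgf21, Adm2 and Tnfrsf10b of the list, each with few reads and a lower mean CPM in LP, were below the count filter and not tested. Vldlr, a lipoprotein receptor, rose from 14, 23 and 17 reads to 78, 79 and 81, a log2FC of 1.98 (SE 0.18, adjusted p = 2.03e-07 by edgeR). Gdf15, a secreted stress hormone, rose from 24, 28 and 37 reads to 91, 81 and 79, a log2FC of 1.34 (SE 0.17, adjusted p = 1.07e-05). All LP samples were above all NP samples for both genes. The skeletal muscle marker sum moved the same way as these genes and as Chac1, and its part in their values was not tested. Cebpb, a dimer partner of ATF4, rose from 75, 172 and 142 reads to 196, 271 and 256 (log2 fold change 0.74, adjusted p = 0.0019 by edgeR, 0.0898 with DESeq2 and past the threshold in 13 other alternatives). Replicate 1 was the low sample of both groups for Cebpb. The fibroblast marker sum was likewise 1170 CPM in NP replicate 1 against 2041 and 2094 in replicates 2 and 3, and 1425 against 2277 and 2359 CPM in LP. The markers of this sum differed. In NP, Col1a1 was at 304, 892 and 814 CPM, Col3a1 at 529, 815 and 834, and Pdgfra at 25.7, 46.8 and 46.3. Dcn was at 248, 276 and 283 CPM, and Lum at 63.6, 63.2 and 62.7. The part of these markers in the Cebpb values was not tested. Atf3 was read 5, 6 and 7 times in the NP samples against 12, 15 and 13 times in the LP samples. Like Chac1, it passed the count filter through its LP reads alone. Its log2 fold change was 0.99, with an adjusted p of 0.0433 by edgeR. Of 13 alternatives 2 kept the call, and it was lost on leaving out any single sample and in the replicate block (adjusted p = 0.0589, range 0.0397 to 0.299). The other 11 tested genes of the list were not called by edgeR. Among them Atf5, Ddit4 and Stc2 had log2 fold changes of -0.09, -0.17 and -0.33, and Cebpg, Nupr1 and Eif4ebp1 had 0.01, 0.13 and 0.14.

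**Figure D4:**
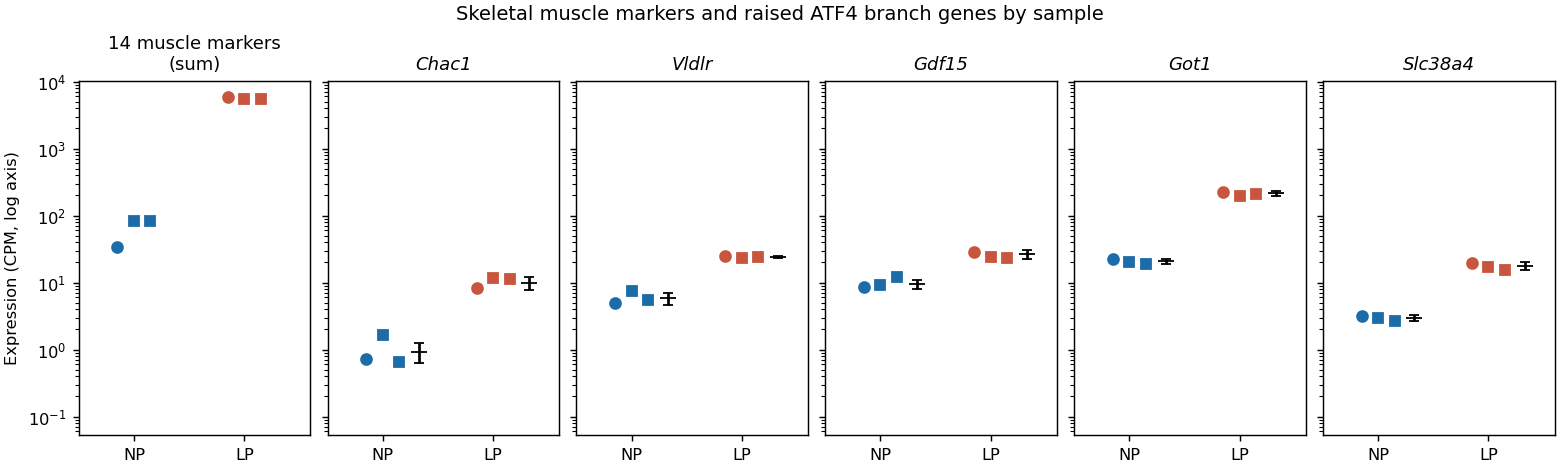
Expression in CPM (y axis, log scale) in NP and LP samples (x axis) of the sum of 14 skeletal muscle markers and of Chac1, Vldlr, Gdf15, Got1 and Slc38a4, with a circle for replicate 1, squares for replicates 2 and 3, and bars for the mean ± SD (n = 2) of single genes. The marker sum goes from at most 82.1 CPM in NP to at least 5552 CPM in LP, and each of the 5 genes is higher in all LP samples than in all NP samples.

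Enzymes of serine, one-carbon and amino acid synthesis moved both ways, with 6 of 17 tested higher and 4 lower. These were 35.3% and 23.5%, against 15.3% and 11.7% of all genes. Got1, the cytosolic aspartate aminotransferase, rose from 62, 61 and 58 reads to 703, 662 and 708, a log2FC of 3.37 (SE 0.08, adjusted p = 2.55e-15 by edgeR). The C/EBP-ATF element was in the windows of 3 of 16 genes of the list, Got1, Pycr1 and Pck2, and the last 2 had log2FC values of 0.04 and 0.08 (adjusted p = 0.946 and 0.572). The mitochondrial form Got2 rose by 1.20 on the log2 scale (adjusted p = 2.83e-11), and Aldh1l1, a folate enzyme, rose from 11, 14 and 8 reads to 75, 92 and 89 (log2 fold change 2.79, adjusted p = 1.07e-08). Gpt2, an alanine aminotransferase, had 0.64 (adjusted p = 0.0241, range over alternatives 0.00473 to 0.14), and lost the call with DESeq2, with replicates 2 and 3 summed and without NP replicate 1 or 2 or LP replicate 2 or 3. In serine synthesis and use, Shmt1 fell by 0.83 (adjusted p = 5.9e-05) and Psph, the last enzyme of the serine pathway, by 0.66 (adjusted p = 0.0338), both by edgeR. The Psph call was lost with DESeq2, with replicates 2 and 3 summed and on leaving out any single sample but NP replicate 3 (range over alternatives 0.0114 to 0.19). Bcat2, which breaks down branched-chain amino acids, fell by 0.55 (adjusted p = 8.64e-07) and Glul, the glutamine synthetase, by 0.29 (adjusted p = 0.000526). The mitochondrial serine enzyme Shmt2 rose by 0.46 with an adjusted p of 1.95e-05 by edgeR (named after its value was seen).

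Amino acid transporters were likewise divided, 4 of 18 higher and 4 lower (22.2% each, against 15.3% and 11.7% of all genes). Slc38a4, which imports neutral amino acids, went from 9, 9 and 8 reads to 61, 57 and 51 (log2 fold change 2.54, SE 0.24, adjusted p = 2.44e-07 by edgeR), and Slc38a2 from 178, 217 and 239 to 386, 422 and 461 (0.85, adjusted p = 1.21e-07). Slc38a4, like Aldh1l1 above, passed the count filter only with its LP reads. Slc38a3 and Slc1a5 had log2 fold changes of 0.59 and 0.58 (adjusted p = 5.42e-05 and 0.00163 by edgeR). Of the exchangers, Slc7a5 (LAT1) fell from 90, 89 and 89 reads to 71, 69 and 54, by 0.62 on the log2 scale (adjusted p = 0.00258 by edgeR), and its partner chain Slc3a2 by 0.27 (adjusted p = 0.00097). The arginine carrier Slc7a1 fell by 0.74 (adjusted p = 0.0011), and Slc1a4 by 0.42 (adjusted p = 0.0352, range over alternatives 0.0141 to 0.226). The Slc1a4 call was lost with DESeq2, with replicates 2 and 3 summed and without NP replicate 2 or 3 or LP replicate 1 or 2.

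Of the 20 cytosolic aminoacyl-tRNA synthetases, which load amino acids onto tRNA, 6 were lower (30%) and 2 higher (10%). Over all genes tested these shares were 11.7% and 15.3%. Of the 20 synthetases, 17 had a negative log2 fold change (median -0.16). The count lower was 13 with library totals alone and 5 to 8 in the other alternatives. Cars fell by 0.58 (adjusted p = 0.000199 by edgeR), Gars by 0.47 (adjusted p = 4.31e-06), Tars by 0.41 (adjusted p = 0.000428) and Yars by 0.38 (adjusted p = 0.000775). Qars and Kars had 0.30 and 0.28 (adjusted p = 0.000946 and 0.0107), and the Kars call was lost with library totals alone and without LP replicate 2 (range over alternatives 3.52e-05 to 0.0618). Of the 7 synthetases with the C/EBP-ATF element in the window, 4 (Aars, Cars, Tars and Yars) were lower and 0 higher by edgeR (0 higher also with DESeq2 and at an unadjusted p of 0.05). Of the 10 without it in the window searched 1 was lower and 2 higher, and 1 of the 3 with no window to search was lower. The Aars call was lost in 5 of 14 alternatives, namely DESeq2, replicates 2 and 3 summed, and without NP replicate 3 or LP replicate 2 or 3. The difference between these groups was not tested.

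Glutathione genes, next to Chac1 in function, gave 2 of 7 higher and 2 lower (28.6% each, against 15.3% and 11.7% of all genes). Gclc, the catalytic subunit of the first enzyme of glutathione synthesis, rose from 82, 99 and 102 reads to 174, 169 and 172, a log2FC of 0.71 (SE 0.10, adjusted p = 1.95e-05 by edgeR). Oplah, which recycles 5-oxoproline, had 0.30 (adjusted p = 0.00727), lost with DESeq2 and without LP replicate 3 (range over alternatives 0.0019 to 0.0952). Ggct, which cleaves γ-glutamyl amino acids, fell by 0.66 (adjusted p = 0.00251), and Ggt7 by 0.55 (adjusted p = 0.0271, range over alternatives 0.0118 to 0.196). The Ggt7 call was lost with DESeq2, with replicates 2 and 3 summed and without NP replicate 2 or 3 or LP replicate 2 or 3.

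The ATF6 and IRE1 branches and ER-associated degradation were mostly lower in LP. Of 17 tested genes 12 were lower and 1 higher (70.6% lower, against 11.7% of all genes), with a median log2 fold change of -0.25. These branches raise the chaperones whose low level was part of the choice, so the share is given as a description. Dnajb9, a cochaperone induced by IRE1, fell from 201, 193 and 215 reads to 141, 163 and 154, by 0.56 on the log2 scale (SE 0.08, adjusted p = 4.19e-05 by edgeR). Herpud1, of the degradation machinery, fell by 0.54 (adjusted p = 5.42e-06), Atf6b by 0.34 (adjusted p = 0.000198) and the factor Xbp1 by 0.33 (adjusted p = 0.000593). Wfs1, an ER membrane protein, rose by 0.40 on the log2 scale (adjusted p = 0.000631).

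Of the amino acid sensing genes of mTORC1, 2 of 20 were higher and 2 lower (10% each, against 15.3% and 11.7% of all genes). The median log2 fold change of the list was 0.03. Rragd, a GTPase of the sensor, rose from 47, 50 and 45 reads to 80, 86 and 102 (log2 fold change 0.76, adjusted p = 0.000429 by edgeR). Rragc and Rraga fell by 0.30 and 0.30 (adjusted p = 0.0122 and 0.00289), and both lost the call with DESeq2 (adjusted p = 0.105 and 0.0551, the highest of their alternatives). That of Rragc was lost also without NP replicate 1 or LP replicate 2. Mtor had 0.22 (adjusted p = 0.0271, range over alternatives 0.0159 to 0.224), with the call lost with DESeq2, with library totals alone, with replicates 2 and 3 summed and without NP replicate 2 or 3 or LP replicate 1 or 2.

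The 5 genes with a pattern most like Chac1 over the 6 samples were Adamtsl5, Aldh1l1, Cacna2d1, Aqp4 and Ppp1r1a. Likeness was the root mean square difference of log2(CPM + 1) after subtraction of the NP mean, which was 0.115 for Adamtsl5 and 0.167, 0.191, 0.211 and 0.215 for the others in this order. Adamtsl5 was read 2, 4 and 2 times in the NP samples against 29, 41 and 38 times in the LP samples. This ranking rests on the same LP and NP values as the rest and, for Adamtsl5, on as few NP reads as Chac1.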

How the data were processed

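Read counts of 6 rat thyroid samples (3 NP, 3 LP) were analysed. The authors mapped reads to rn5 with TopHat 1.4.0, assigned them to Ensembl gene models with HTSeq, and deposited raw counts without normalization. The strand setting is not given in the sources used here, so overlapping genes cannot be told apart. LP and NP were compared with edgeR 4.0.16 in R 4.3.3 (quasi-likelihood test, TMM, default filter, Benjamini-Hochberg over the 11738 genes passing it). The standard error is the absolute log2 fold change over the square root of F. Values of Trib3 and Slc7a11 come from the fit without filter. Steps were tested on simulated data with independent samples, a setting that lacks the likeness of replicates 2 and 3 seen here. The reported fit had no pairing. In 1 alternative fit only, the block, replicate numbers were taken to pair samples. Deviations from the group means correlated between same-numbered samples (0.483, 0.216 and 0.183). The correlations of replicates 2 and 3 across numbers (0.207 and 0.209) were as high, and the block lowered edgeR's coefficient of variation from 0.0645 to 0.0131. Alternatives were the block, replicates 2 and 3 summed, 1 sample left out, other filters and scalings, and DESeq2 1.42.0. Named were the 10 genes, up to 4 called genes per list and direction, their close relatives, the eIF2α kinases, 5 chaperones and the 5 genes most like Chac1. Aars, Pycr1, Pck2, Shmt2, Ern1, Atf5, Ddit4, Stc2, Cebpg, Nupr1, Eif4ebp1, Fgf21, Adm2 and Tnfrsf10b were named after their values were seen. Genes and lists were chosen with earlier results of these data known. Ckm, also to be named, was not analysed here. Counts limit precision, and intervals cover counting error only.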

Additional observations from a re-analysis of the deposited data

How the results depend on the processing

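Of the 54 other pathway genes called by edgeR, 35 kept their call in every alternative but the stricter filter, and 0 changed direction in any alternative. The call was kept by 45 with replicates 2 and 3 summed, by 37 with DESeq2 and by 53 with the replicate block, where 24 genes were higher and 34 lower. In the block the loss was Atf3, and the block changed no other call among the pathway genes named by the stated rule. With DESeq2 20 genes were lower in place of 31, and over all genes 703 in place of 1378. Leaving out 1 sample gave 19 to 22 higher and 25 to 31 lower. With library totals alone the log2 fold change was -0.28 for Atf4, -0.47 for Psat1, -0.24 for Phgdh and -0.043 for Sesn2, and the chaperone median -0.70. The median of all genes was then -0.08, in place of -0.01. The chaperone median was -0.68 to -0.58 with 1 sample left out. Chac1 was at 3.09 to 3.86, the highest without NP replicate 2, and Slc7a11 at -1.80 to -0.54, the lowest without LP replicate 2. Small values of genes not called changed sign. With library totals Trib1 was at -0.021, Trib2 at -0.016 and Eif2ak3 at -0.022, and with TMM computed without muscle markers and genes past a fold of 2 Chac2 was at 0.0020. With 1 sample left out Chac2 spanned -0.32 to 0.18, Trib2 -0.079 to 0.18, Ppp1r15b -0.11 to 0.025, Eif2ak3 -0.033 to 0.10 and Eif2ak4 -0.20 to 0.0092. The cause was not tested. Depth limits Chac1 in NP, Trib3 and Slc7a11, and with a mean of at least 50 counts required Chac1, Trib3 and Slc7a11 could not be fitted.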
